A study of Homo sapiens with 32 samples.

Results

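The genes described here encode the subunits of AMP-activated protein kinase (AMPK) and the kinases that switch it on. They were taken by name from a table of FPKM (sequenced fragments divided by exon length and by the size of the library, a level that can be compared between genes), and 8 of its 22610 entries matched. They are PRKAA1 and PRKAA2 for the catalytic alpha subunit, PRKAB1 and PRKAB2 for the scaffolding beta subunit, PRKAG1 and PRKAG2 for the nucleotide-binding gamma subunit, and the upstream kinase genes STK11 (LKB1) and CAMKK2. The rule selects them by name, without a cutoff on any value. All 8 passed the filter for testing, a mean of at least 1 FPKM, which 12621 entries passed.

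RNA-Seq was performed on SK-N-BE(2), a human neuroblastoma cell line, treated with 20 μM cannabidiol (CBD) in ethanol or with vehicle (0.1% ethanol). Cells were collected 3, 6, 12 and 24 h after treatment, with 4 replicates in each of the 8 groups and 32 samples in all. Every sample came from this 1 line, with no other genotype or agent, and replicates were wells of plated cells. The labels do not say whether these wells came from separate passages, so the p values measure the spread between wells.

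AMPK is a heterotrimer of 1 alpha, 1 beta and 1 gamma subunit, and each class is encoded by more than 1 gene, so cells can assemble it in several isoform combinations. The gamma subunit senses the balance of AMP, ADP and ATP. LKB1 phosphorylates the activation loop of the alpha subunit when energy falls, and CaMKK2, encoded by CAMKK2, does so when calcium rises. Active AMPK phosphorylates enzymes of lipid, sterol and glucose metabolism and slows biosynthesis. The study followed AMPK activity and substrate phosphorylation under CBD, and the question addressed here is whether the transcripts of the kinase and its activators also differed. Transcript levels do not report kinase activity or phosphorylation.

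In the authors' genome build, hg19, the 8 genes lie on 5 chromosomes. PRKAA1 is on chromosome 5 (40759491 to 40798476, minus strand) and PRKAA2 on chromosome 1 (57110987 to 57181008, plus strand). PRKAB1 is on chromosome 12 (120105669 to 120119429, plus strand) and PRKAB2 on chromosome 1 (146626685 to 146644129, minus strand). PRKAG1 is on chromosome 12 (49396057 to 49412590, minus strand) and PRKAG2 on chromosome 7 (151253210 to 151574299, minus strand). STK11 is on chromosome 19 (1177557 to 1228430, plus strand) and CAMKK2 on chromosome 12 (121675478 to 121736111, minus strand). In PRKAG1, 49.4% of the 50-base words of its transcripts occur in another gene, and 0.209% do so when genes that overlap it are set aside. One of these overlapping genes is a protein-coding entry on the same strand, so the level of PRKAG1 is uncertain where counting could split reads between them. The share was at most 2.47% for the other 7 genes. Exons of PRKAB1, PRKAG1, PRKAG2 and STK11 overlap a gene on the opposite strand. The methods call the run first stranded, while the setting used to count reads by strand is not given in the sources used here.

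Among the 8 genes, those of the beta subunit had the largest log2 differences with CBD at 24 h, and their promoters are shown for that reason. Both are RefSeq sequences of build GRCh38.p14, from 250 bases before to 50 bases after the gene start, read along the gene, and capitals mark the motifs found.
PRKAB1 (chr12:119667883-119668182, plus strand): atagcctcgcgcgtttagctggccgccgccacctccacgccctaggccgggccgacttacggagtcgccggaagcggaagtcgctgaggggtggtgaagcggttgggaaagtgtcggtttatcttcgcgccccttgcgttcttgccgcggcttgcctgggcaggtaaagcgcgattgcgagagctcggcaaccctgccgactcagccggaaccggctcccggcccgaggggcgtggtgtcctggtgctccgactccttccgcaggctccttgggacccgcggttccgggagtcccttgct
PRKAB2 (chr1:147172421-147172720, minus strand): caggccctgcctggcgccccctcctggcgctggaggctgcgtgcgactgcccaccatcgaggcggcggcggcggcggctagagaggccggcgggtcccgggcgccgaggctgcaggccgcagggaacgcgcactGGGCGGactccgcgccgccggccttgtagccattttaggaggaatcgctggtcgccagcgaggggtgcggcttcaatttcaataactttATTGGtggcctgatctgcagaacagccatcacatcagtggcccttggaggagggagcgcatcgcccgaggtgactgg
Each promoter was searched on both strands for the E-box CACGTG, the cAMP response element TGACGTCA, the GC box GGGCGG, the CCAAT box CCAAT and the TATA box TATAAA, and no motifs overlapped here. The PRKAB2 promoter held 1 GC box and 1 CCAAT box (in capitals as its reverse complement), and none of the 5 motifs was found in the PRKAB1 promoter. Among 35116 promoters of this length, 45.0% held the GC box, 34.6% the CCAAT box, 11.5% the TATA box, 7.26% the E-box and 1.85% the cAMP response element. The G and C content was 67.7% in the PRKAB1 promoter and 68.7% in the PRKAB2 promoter, against a median of 58.7% over all promoters.

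Markers of sympathetic neuroblastoma were abundant, with PHOX2A between 322 and 513 FPKM, HAND2 between 454 and 526 FPKM and MYCN between 1421 and 2452 FPKM over the 32 samples. The blood cell marker PTPRC was at most 0.0305 FPKM. FPKM do not record how many reads a sample had, but the smallest steps in low values, 94.4% of them within 10% of whole reads, placed the depths of the samples within a 1.51-fold range. The median relative depth was lower with CBD than with vehicle at 3 h (0.925 and 1.05), 6 h (0.954 and 1.05) and 12 h (0.928 and 1.00), and 1.00 and 1.02 at 24 h. In RNA from whole wells, a change in the share of cells that express a gene and a change in its level per cell cannot be told apart.

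All 8 genes were expressed in all 32 samples. By mean FPKM over the samples, CAMKK2 was highest at 24.4 FPKM (21.6 to 26.9), followed by PRKAG1 at 18.3 (13.4 to 21.1), STK11 at 16.6 (14.7 to 18.3) and PRKAA1 at 13.3 FPKM (11.8 to 14.9). PRKAB2 was at 10.9 FPKM (9.01 to 16.3), PRKAB1 at 9.22 (7.24 to 11.0), PRKAG2 at 6.95 (6.21 to 7.54) and PRKAA2 at 2.77 FPKM (2.04 to 3.49). PRKAG3, the remaining gamma subunit gene, was listed between 0 and 0.0445 FPKM and was above 0 in 18 samples. With vehicle at 3 h the order was CAMKK2, PRKAG1, STK11, PRKAA1, PRKAB1, PRKAB2, PRKAG2 and PRKAA2, and the 4 samples of no gene overlapped those of its neighbour. At 6 h the samples of PRKAB1 and PRKAB2 overlapped in both treatments, and at 12 h PRKAB2 stood above PRKAB1. The samples of PRKAG1 and STK11 overlapped with CBD at 12 h and with vehicle at 24 h. In both treatments at 24 h STK11 stood above PRKAG1 and PRKAB2 above PRKAA1 by group mean. With CBD at 24 h STK11 overlapped PRKAB2, PRKAB2 overlapped PRKAG1 and PRKAB1 overlapped PRKAG2. CAMKK2 was the highest and PRKAA2 the lowest in all 8 groups.

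**Figure D1:**
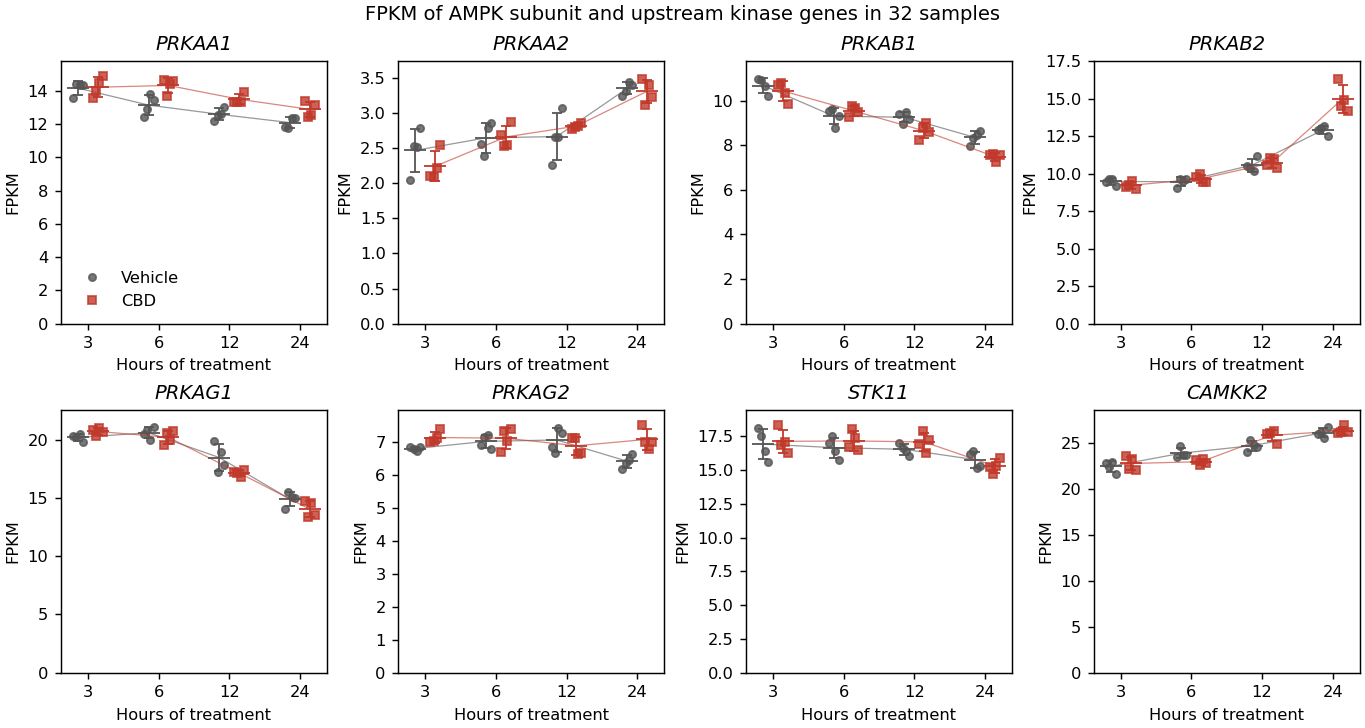
FPKM (vertical axis, from 0, with its own scale for each gene) against hours of treatment (equally spaced categories) for the 8 genes, with 1 point per well, 4 wells per group, and a bar and whiskers for the mean and SD. Lines join group means of different wells. PRKAB2 rose and PRKAB1 and PRKAG1 fell with time in vehicle, and at 24 h the CBD wells of PRKAB2 lie above and those of PRKAB1 below the vehicle wells.

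CBD and vehicle were compared at each time with limma on log2(FPKM + 1), on which a difference understates the change of a gene with low FPKM, and a gene was called at a Benjamini-Hochberg adjusted p under 0.01 over all genes tested. At 3, 6 and 12 h, limma called 0 of the 8 genes, where it called 2.46%, 10.2% and 20.1% of all genes. Unadjusted p was under 0.05 for 0, 2 and 4 of the 8 genes at these times. The share of all genes at that limit was not counted, but 917, 2434 and 3785 of the 12621 passed an adjusted p under 0.05. In exact two-sided permutation tests p was under 0.05 for 1 gene at each time. That requires groups that do not overlap, as in 9.88%, 19.6% and 30.3% of all genes. At 24 h it called 3 of 8, or 37.5%, where 42.1% of all genes were called. PRKAB2 and PRKAG2 were higher with CBD (20.8% of all genes were called higher), and PRKAB1 was lower (21.3% were called lower). The median log2 difference of the 8 genes was 0.011, 0.022, 0.031 and -0.0011 in order of time, against medians of 0.0066, -0.0048, -0.0043 and -0.0032 over all genes tested. The genes that were called at 24 h changed by small amounts, as did genes called in general, whose median absolute log2 difference was 0.21.

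The beta subunit bridges the alpha and gamma subunits and carries a glycogen-binding module. The levels of PRKAB2 at 24 h were 12.9, 13.1, 13.2 and 12.5 FPKM in the 4 vehicle wells and 16.3, 14.5, 14.9 and 14.2 FPKM in the 4 CBD wells. The groups did not overlap, and 1 CBD well stood above the other 3. The mean went from 12.9 ± 0.285 FPKM (SD, n = 4) with vehicle to 15.0 ± 0.925 FPKM (SD, n = 4) in the CBD wells, a log2 difference of 0.20 (standard error 0.032, 95% interval 0.13 to 0.27, adjusted p = 9.395e-06 from limma). At 3, 6 and 12 h the log2 differences of PRKAB2 were -0.037, 0.028 and 0.019 (adjusted p = 0.527, 0.593 and 0.710 from limma). The CBD difference of PRKAB2 at 24 h exceeded that at 3 h by 0.24 on the log2 scale (standard error 0.045, adjusted p = 0.000172, limma interaction term), the only 1 of the 8 genes called in that test, or 12.5%, where 27.2% of all genes were called. The 8 genes had a median of 0.028 there, and all genes -0.0083.

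PRKAB1 moved the other way. At 24 h its levels were 7.97, 8.34, 8.46 and 8.63 FPKM with vehicle and 7.55, 7.62, 7.24 and 7.55 FPKM with CBD, so that every CBD well lay below every vehicle well. The log2 difference was -0.14 (standard error 0.030, 95% interval -0.20 to -0.077, adjusted p = 0.0003414 from limma), from 8.35 ± 0.279 FPKM (SD, n = 4) to 7.49 ± 0.171 FPKM (SD, n = 4). At 12 h it was -0.089 (adjusted p = 0.0264 from limma) and not called, and before that it was -0.031 at 3 h (adjusted p = 0.587) and 0.033 at 6 h (0.476). The change of its difference from 3 to 24 h was -0.11 and was not called (adjusted p = 0.0446). A limma F-test took the changes from 3 h to 6, 12 and 24 h together. It narrowly called PRKAB1 (adjusted p = 0.009947), and it called PRKAB2 (0.0009023). The other members had adjusted p of 0.03314 or more there. The share of all genes called in that test was not counted, and no alternatives were run for it.

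The 2 beta genes were also set against each other within each well, as the share of PRKAB2 in their summed FPKM, which is a description without a test. In vehicle the share was 47.0% ± 0.615 (SD, n = 4) at 3 h, 50.4% ± 1.37 and 53.3% ± 1.31 in the middle of the series, and 60.7% ± 1.12 at 24 h. With CBD the share was 46.9% ± 1.07, 50.3% ± 0.83, 55.4% ± 0.738 and 66.6% ± 1.45 in order of time. At 24 h the vehicle wells lay between 59.2% and 61.8% and the CBD wells between 65.3% and 68.3%. The summed FPKM of both genes was 21.3 ± 0.315 (SD, n = 4) with vehicle and 22.5 ± 0.937 with CBD at 24 h.

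**Figure D2:**
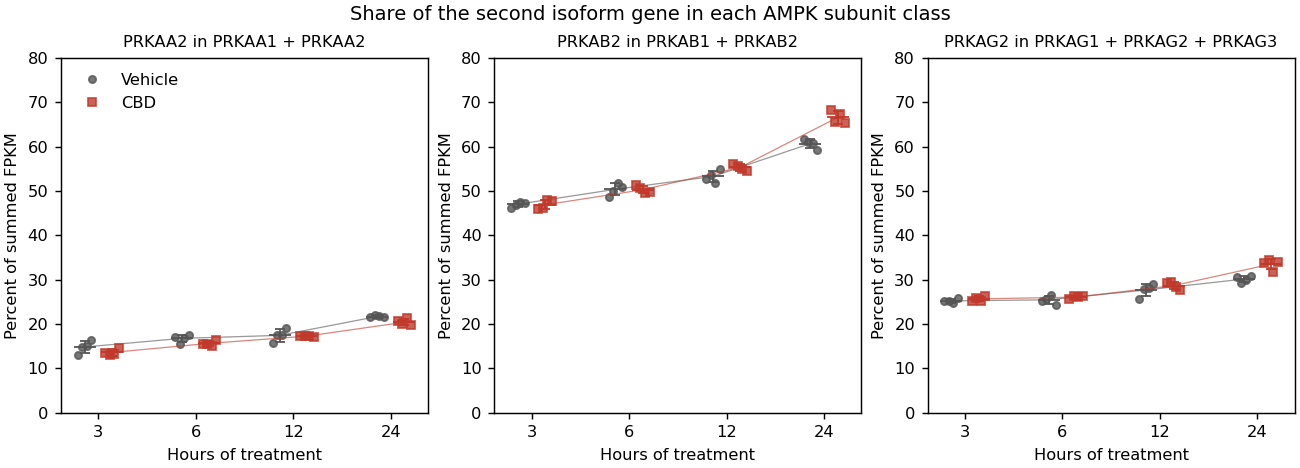
Share of PRKAA2, PRKAB2 and PRKAG2 (percent of the summed FPKM of the genes of their class, vertical axis from 0) against hours of treatment, with 1 point per well, 4 wells per group and a bar and whiskers for the mean and SD. At 24 h the wells of the treatments overlap in none of the 3 shares, which were 60.7% with vehicle and 66.6% with CBD for PRKAB2, 30.1% and 33.6% for PRKAG2, and 21.7% and 20.5% for PRKAA2. By level, 51% of all genes had groups that did not overlap at 24 h. The levels of PRKAA2 itself overlapped at 24 h, while those of PRKAA1, also in its share, did not.

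The gamma subunit binds the nucleotides to which AMPK responds. PRKAG2 at 24 h was at 6.21, 6.38, 6.46 and 6.66 FPKM with vehicle and at 7.54, 7.03, 6.79 and 7.03 FPKM with CBD. The groups did not overlap, although the highest vehicle well and the lowest CBD well lay close together. The log2 difference was 0.12 (standard error 0.032, 95% interval 0.058 to 0.19, adjusted p = 0.002022 from limma). This call was lost without vehicle replicate 1 of 24 h (adjusted p = 0.0102), without CBD replicate 1 of 24 h (0.0145) and with only the 24 h samples in the model (0.0142), and over all alternatives and left-out samples the adjusted p lay between 0.001141 and 0.01448. The log2 difference was 0.081 with 5 in place of 1 added before the logarithm. At 3 h the PRKAG2 wells did not overlap either, at 6.86, 6.80, 6.75 and 6.86 FPKM with vehicle and 7.02, 7.06, 7.12 and 7.41 FPKM with CBD, and 9.88% of all genes had groups that did not overlap at 3 h. That difference was 0.061 and was not called (adjusted p = 0.261 from limma).

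PRKAG1, the more abundant gamma gene, was not called at any time. Its levels at 24 h were 14.1, 15.5, 15.1 and 15.0 FPKM with vehicle and 14.7, 13.4, 14.5 and 13.5 FPKM with CBD, and the groups overlapped. The log2 difference was -0.099 at 12 h (adjusted p = 0.02495 from limma) and -0.081 at 24 h (0.04397). At 24 h it was called under median-ratio scaling (log2 difference -0.11, adjusted p = 0.007222), and at 12 h it was called without vehicle replicate 2 of that time (-0.13, adjusted p = 0.004387). The share of PRKAG2 in the summed FPKM of the 3 gamma genes at 24 h was 30.1% ± 0.715 (SD, n = 4) with vehicle and 33.6% ± 1.17 (SD, n = 4) with CBD, while the summed FPKM was 21.3 ± 0.715 and 21.1 ± 0.858.

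The alpha subunit holds the kinase domain. PRKAA1 was at 12.4, 12.9, 13.8 and 13.4 FPKM with vehicle and at 14.6, 13.7, 14.4 and 14.6 FPKM with CBD at 6 h. Its highest vehicle well reached above the lowest CBD well. The log2 difference was 0.12 (standard error 0.032, adjusted p = 0.0105 from limma), just outside the threshold, and the gene was called without vehicle replicate 3 of 6 h (adjusted p = 0.004355), without CBD replicate 2 of 6 h (0.00536) and under median-ratio scaling (0.006418) or quantile normalization (0.00533). With only the 6 h samples in the model the adjusted p was 0.08281, the highest over the alternatives, and with 1 sample left out it reached 0.05481 (without vehicle replicate 1 of 6 h). At 12 h the 4 CBD wells, from 13.3 to 13.9 FPKM, lay above the 4 vehicle wells, from 12.2 to 13.0 FPKM, with a log2 difference of 0.093 (adjusted p = 0.0265 from limma). At 24 h they did so again, from 12.43 to 13.36 FPKM against 11.77 to 12.38 FPKM, with a difference of 0.084 (adjusted p = 0.0267 from limma). At 3 h the difference of PRKAA1 was 0.0053 (95% interval -0.060 to 0.070).

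PRKAA2, at the lowest level of the 8 genes, showed no difference with CBD that these wells could resolve. At 24 h it was at 3.25, 3.31, 3.45 and 3.40 FPKM with vehicle and 3.49, 3.12, 3.40 and 3.23 FPKM with CBD, which overlapped. The log2 difference was -0.014 with a 95% interval of -0.14 to 0.11 (adjusted p = 0.867 from limma). The share of PRKAA2 in the summed FPKM of the alpha genes at 24 h was 21.7% ± 0.219 (SD, n = 4) with vehicle, from 21.5% to 22.0%, and 20.5% ± 0.701 (SD, n = 4) with CBD, from 19.7% to 21.3%. The interval of the log2 difference at 3 h was -0.22 to 0.027, which includes a fall of up to 0.22 as well as no difference.

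The genes of both upstream kinases were not called at any time. STK11 encodes LKB1, a tumor suppressor kinase. At 24 h its levels were 16.2, 16.4, 15.2 and 15.3 FPKM with vehicle and 15.2, 14.7, 15.3 and 15.9 FPKM with CBD, with a log2 difference of -0.041 (95% interval -0.13 to 0.043, adjusted p = 0.418 from limma). Its log2 differences at 3, 6 and 12 h lay between 0.017 and 0.044. CAMKK2 at 24 h was at 25.9, 26.2, 25.6 and 26.7 FPKM with vehicle and 26.0, 26.2, 26.9 and 26.1 FPKM with CBD, with a difference of 0.012 (95% interval -0.035 to 0.059, adjusted p = 0.686 from limma). At 6 h the CAMKK2 wells did not overlap, at 23.5, 24.7, 23.6 and 23.7 FPKM with vehicle against 23.1, 22.6, 23.3 and 22.8 FPKM with CBD, where 19.6% of all genes had groups that did not overlap. The log2 difference there was -0.054 (adjusted p = 0.0973 from limma), and at 12 h it was 0.062 (adjusted p = 0.0419), neither of them called.

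Groups did not overlap for 1 of the 8 genes at 12 h (PRKAA1), against 30.3% of all genes, and for 4 at 24 h (PRKAA1, PRKAB1, PRKAB2 and PRKAG2), against 51% of all genes. The smallest p that an exact permutation test of 4 against 4 wells can give is 0.0286, and adjusted over 32 such tests of 8 genes at 4 times the lowest was 0.131, so that none passed. An F-test of limma over the 4 CBD differences together, chosen after the data were seen, called 4 of the 8 genes, where 47.2% of all genes were called. They were PRKAB2 (F = 10.2, adjusted p = 0.0001652), PRKAB1 (F = 8.09, adjusted p = 0.0007076), PRKAA1 (F = 7.34, adjusted p = 0.001247) and PRKAG2 (F = 4.93, adjusted p = 0.009346). The call of PRKAG2 was lost under 8 of 10 other settings and without 21 of 32 samples left out in turn (adjusted p from 0.004589 to 0.03342). PRKAG1 (limma adjusted p = 0.01986) was called in the same test under median-ratio scaling (0.006168), without vehicle replicate 2 of 12 h (0.003743), without vehicle replicate 1 of 24 h (0.00707) and without CBD replicate 1 of 24 h (0.00993).

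**Figure D3:**
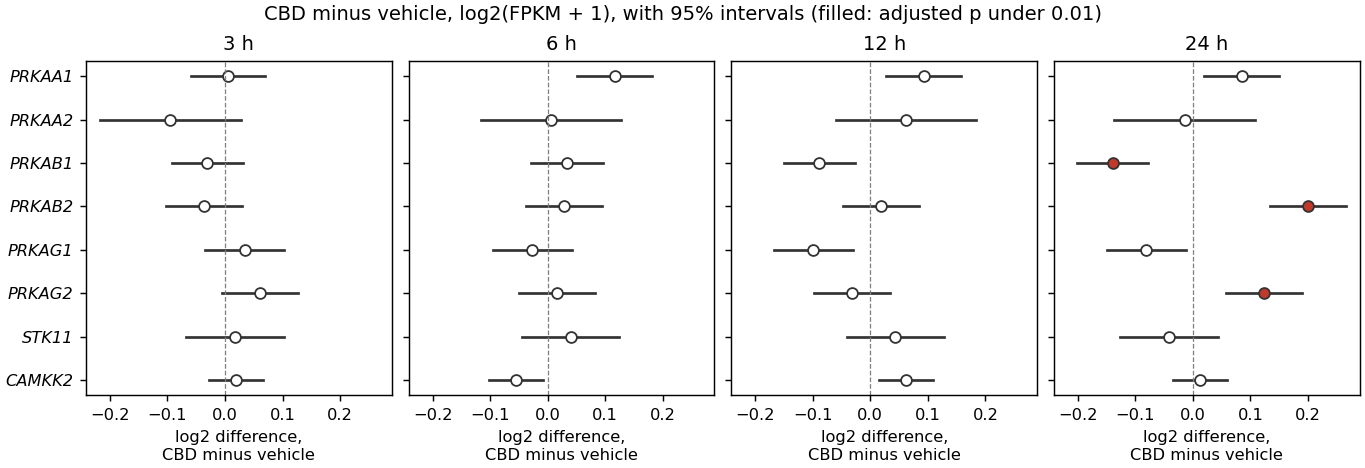
Log2 difference in log2(FPKM + 1), CBD minus vehicle (horizontal axis), for the 8 genes at 3, 6, 12 and 24 h. Points are limma estimates from 4 wells per group, lines are 95% intervals, and filled points mark an adjusted p under 0.01, which only PRKAB1, PRKAB2 and PRKAG2 reached, all at 24 h.

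The levels of most of the 8 genes also differed between the times in vehicle alone. Vehicle at 24 h differed from vehicle at 3 h in 6 of 8 genes, or 75.0%, where limma called 57.8% of all genes. PRKAA2, PRKAB2 and CAMKK2 were higher at 24 h (26.6% of all genes were called higher), and PRKAA1, PRKAB1 and PRKAG1 were lower (31.1% were called lower). The median of the 8 genes was -0.084, and that of all genes was -0.013. This comparison uses the same 24 h vehicle wells as the CBD comparison at 24 h, so the values of both are given side by side and are not independent.

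PRKAB2 went from 9.43, 9.65, 9.67 and 9.19 FPKM in the vehicle wells at 3 h to the 24 h levels given above, a log2 difference of 0.41 (adjusted p = 2.234e-11 from limma), beside 0.20 for CBD against vehicle at 24 h. PRKAB1 was at 11.0, 10.9, 10.6 and 10.2 FPKM at 3 h and had a difference of -0.32 (adjusted p = 5.892e-10), beside -0.14 with CBD. In both genes all 4 wells at 24 h lay outside the range of the wells at 3 h.

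PRKAG1 was at 20.3, 20.2, 20.4 and 19.8 FPKM at 3 h, and its difference of -0.42 (adjusted p = 3.053e-11 from limma) was the largest fall of the 8 genes. The summed FPKM of the gamma genes went from 27.0 ± 0.270 (SD, n = 4) at 3 h to 21.3 ± 0.715 at 24 h. PRKAG2 differed by -0.073 (adjusted p = 0.046), not called, although it was called under median-ratio scaling (adjusted p = 0.006747) and quantile normalization (0.006399).

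PRKAA1 was at 13.5, 14.4, 14.3 and 14.3 FPKM in vehicle at 3 h and had a log2 difference of -0.21 (adjusted p = 1.66e-06 from limma) at 24 h. PRKAA2 was at 2.04, 2.52, 2.52 and 2.78 FPKM at 3 h and had a difference of 0.33 (adjusted p = 2.192e-05), a size that depends on the value added before the logarithm, from 0.16 with 5 added to 0.43 with 0.1 added. The share of PRKAA2 in the alpha genes was 14.8% ± 1.29 (SD, n = 4) at 3 h and 21.7% ± 0.219 (SD, n = 4) at 24 h. CAMKK2 was at 22.8, 22.4, 22.9 and 21.6 FPKM at 3 h and had a difference of 0.21 (adjusted p = 9.853e-09). STK11 had a difference of -0.094 (adjusted p = 0.0463), called only without vehicle replicate 4 of 3 h among the left-out samples (adjusted p = 0.00781).

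The genes most like PRKAB2 over the 32 samples, by Pearson r of log2(FPKM + 1), were GAB2 (r = 0.981), NATD1 (0.978) and CCNB1IP1 (0.977). Those most like PRKAB1 were TRIM35 (0.964), ST8SIA2 (0.963) and E2F2 (0.961). These are descriptions over samples that share the 4 times and both treatments.

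Other genes of the pathway were read from the same fits. Of 16 further upstream regulators (partners of LKB1, other activating kinases, folliculin and its partners, and phosphatases), 15 were tested. Of these, 0, 1, 4 and 10 were called at 3, 6, 12 and 24 h. The first 3 counts were 0%, 6.67% and 26.7%, against 2.46%, 10.2% and 20.1% of all genes. At 24 h that was 66.7%, against 42.1% of all genes, with 5 higher and 5 lower and a median of -0.055, against -0.0032 for all genes. PPM1E, a phosphatase that acts on AMPK, rose by 0.29 and FLCN, which encodes folliculin, rose by 0.26 on the log2 scale at 24 h (adjusted p = 1.039e-10 and 4.021e-06 from limma).

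Of 12 AMPK-related kinases that LKB1 also activates, 10 were tested, and 0, 0, 1 and 4 were called in order of time. The 4 called at 24 h, or 40.0% against 42.1% of all genes, were all higher (20.8% of all genes were called higher), and the median over the list was 0.036. Among them were SIK1 (0.27, adjusted p = 1.442e-06 from limma), MARK4 (0.19, adjusted p = 0.0001953) and SIK3 (0.13, adjusted p = 0.0004905).

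Of 18 substrates of AMPK, 16 were tested, and 0, 3, 7 and 11 were called in order of time. At 3, 6 and 12 h that was 0%, 18.8% and 43.8%, against 2.46%, 10.2% and 20.1% of all genes. At 24 h 7 were higher and 4 lower (68.8% called against 42.1% of all genes), with a median of 0.056. PFKFB3, which promotes glycolysis through fructose 2,6-bisphosphate, fell by 0.46 and GYS1, the glycogen synthase of muscle and other tissues, fell by 0.39 on the log2 scale at 24 h (adjusted p = 5.623e-12 and 3.222e-09 from limma). For the counts of 0 at 3 h, unadjusted p was under 0.05 for 1 upstream regulator, 0 related kinases and 2 substrates. For the related kinases at 6 h it was under 0.05 for 2 genes, and the share of all genes at this limit was not counted. No exact permutation test was run on these lists.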

How the data were processed

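Per the labels and methods, the authors sequenced polyA RNA as single 50-base reads, merged FASTQ files from 7 lanes, trimmed reads with Trimmomatic version 0.36, mapped them to hg19 with Tophat, and obtained FPKM for each gene and sample with Cufflinks, and the deposited FPKM were used as given. The labels name a Nugen library kit and the methods a TruSEQ one. The gene annotation is not given in the sources used here. The deposited Cuffdiff log2 fold changes and q values were not used.

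Samples were grouped by their labels. FPKM were transformed to log2(FPKM + 1), entries with a mean of at least 1 FPKM were kept, and limma (version 3.58.1, R version 4.3.3) fitted 1 model of 8 group means to all 32 samples (eBayes with intensity trend, 24 residual degrees of freedom). Adjusted p values are Benjamini-Hochberg within a comparison, with a threshold of 0.01, and intervals are at 95%. A change in total RNA per cell is not visible in FPKM. The fit was tested on simulated data with independent noise. The changes put in were larger than any CBD difference of the 8 genes, so detection at their sizes was not tested. Exact two-sided permutation tests used scipy version 1.17.1 under Python version 3.11.15. No pair of samples was identical in more than 0.023% of values.

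The 8 genes, the lists and the rule for named genes were chosen with earlier results of these data known. The rule named all 8 genes, PRKAG3, up to 3 called genes per list with the largest differences at 24 h, and the 3 genes most like the 2 members with the largest F. Positions and shared 50-base words came from GENCODE version 44 on GRCh37, and promoters from RefSeq on GRCh38.p14, where all 8 genes matched. Protein sequences were not analysed here, and 2 genes that the rule named are not reported here. Alternatives were other values added before the logarithm, filters, scalings, variance settings and thresholds, relative depth or replicate number as a term, only the groups compared, and each sample left out.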

Additional observations from a re-analysis of the deposited data

Results flagged for a closer look

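In groups of 4, the gap of a well to the nearest other well was divided by the range of the 4 wells. A well was set apart when this ratio exceeded Dixon's critical value, a limit that chance passes in about 1 of 20 groups. Of 64 groups tested, 3 passed, where 3.2 were expected by chance. PRKAA1 in vehicle replicate 1 at 3 h was at 13.54 FPKM, with the others from 14.32 to 14.41 FPKM. PRKAA1 in CBD replicate 4 at 12 h was at 13.94 FPKM, with the others from 13.31 to 13.34 FPKM. CAMKK2 in CBD replicate 3 at 24 h was at 26.92 FPKM, with the others from 26.02 to 26.17 FPKM.

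The CBD difference of PRKAB2 at 24 h minus that at 3 h was 0.24 on the log2 scale (limma interaction term, adjusted p = 0.000172) and was called. The same term was called in no other of the 8 genes.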

How the results depend on the processing

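At 3 h all genes called numbered 310, against 190 with relative depth as a term, 29 with only the groups compared, 917 at a threshold of 0.05 and 164 to 493 with 1 sample left out. The lowest was without vehicle replicate 4 and the highest without CBD replicate 1, and the count was also over 1.5 times lower without vehicle replicate 3 (184), CBD replicate 2 (169) or CBD replicate 3 (196). At 6 h the 1288 calls became 425 with only the groups compared and 2434 at 0.05. Of the 8 genes, 1 (PRKAA1) was called at 6 h with a mean of at least 5 FPKM, median-ratio scaling, quantile normalization, the replicate block or a threshold of 0.05, and 0 to 1 with 1 sample left out. At 12 h 4 were called at 0.05, where 3785 of all 12621 genes were called. With 1 sample left out, 0 to 1 were called at 12 h, beside 1989 to 2422 of all genes. At 24 h 5 were called at 0.05, and 2 to 3 with 1 sample left out, beside 4772 to 5001 of all genes. For the change from 3 to 24 h 2 of the 8 were called at 0.05. Over the alternatives that kept all samples, the threshold of 0.05 among them, calls over all genes reached 6640 at 24 h and 4922 for that change. Between samples of different groups, the mean correlation of deviations was 0.000819 over 112 same-numbered pairs (-0.13 to 0.138). Over 336 pairs with other replicate numbers it was -0.00028 (-0.154 to 0.131). These means were both near 0. They cannot decide whether replicate number mattered for single genes, because effects in a few genes hardly move them. With the replicate block, PRKAA1 was called at 6 h (adjusted p = 0.002025), at 12 h (0.006648), making 1 of 8 genes at that time, and at 24 h (0.00717), from limma. Under median-ratio scaling its log2 difference at 24 h was 0.06 (limma adjusted p = 0.1076). With that scaling, 40.6% of all genes called at 24 h were higher, against 49.4% without it. The calls of PRKAB1 and PRKAB2 at 24 h were kept under all alternatives and left-out samples, with adjusted p up to 0.003261 and 0.004691. No direction of a called value was reversed, and for single genes 1300 values kept their side of the threshold, 32 lost and 29 gained a call. The cause of these changes was not tested.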
